A study of Mus musculus with 6 samples.

Results

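A set of 10 genes of prostaglandin and leukotriene biology was followed in cultured mouse lung fibroblasts that received the Hedgehog agonist purmorphamine or vehicle. The set was fixed by name as Ptgs1, Ptgs2, Ptges, Ptgis, Hpgds, Ptger2, Ptger4, Alox5, Alox5ap and Ltc4s, and each gene was read from its brightest probe set that carries 1 gene symbol. Of the 10 genes, 9 could be measured in this way among 22180 genes in all, and Ptgs1 was not analysed here. The cells were enriched from digested lungs of wild-type male C57BL/6 mice aged 8 weeks, and were used up to passage 3. The cells were split into wells, of which 3 were given vehicle and 3 were given purmorphamine for 24 h at a dose written as 5um in the labels, taken here to mean 5 µM, and the RNA of each well was hybridised to 1 Affymetrix array. Purmorphamine, a purine derivative, binds and switches on Smoothened, the transducer of Hedgehog signals to the Gli transcription factors. How many mice or cell pools lay behind the wells is not given in the labels, so each p-value reflects well-to-well spread, which could be technical.

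Prostaglandins and leukotrienes are short-lived lipid signals made from arachidonic acid, a fatty acid that phospholipases release from membranes. Cyclooxygenases, encoded by Ptgs1 and Ptgs2, turn it into prostaglandin H2, from which terminal synthases make prostaglandin E2 (Ptges), prostacyclin (Ptgis) or prostaglandin D2 (Hpgds). On the other branch, arachidonate 5-lipoxygenase (Alox5) works with its membrane partner FLAP (Alox5ap) to make leukotriene A4, which leukotriene C4 synthase (Ltc4s) joins to glutathione. In the lung, fibroblasts are a known source of prostaglandin E2, which restrains their own growth and matrix output through the receptors EP2 (Ptger2) and EP4 (Ptger4). Leukotriene synthesis is known chiefly from macrophages, mast cells and granulocytes.

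Members of the set changed in both directions. Alox5, Hpgds and Alox5ap fell, by 1.91-fold, 1.65-fold and 1.503-fold, while Ptger2 and Ptges rose, by 1.41-fold and 1.37-fold. Ptgs2, Ptgis, Ptger4 and Ltc4s did not pass the test. In all, 5 of the 9 measured genes (55.6%) were called at an adjusted p under 0.05 with limma, against 14.3% of all genes tested. The gene set was chosen with earlier results of these data known, so its shares are descriptions and not independent evidence. Of the calls, 3 were falls, against 7.16% of all genes, and 2 were rises, against 7.18%. The median absolute difference was 0.45 log2 units over the 9 genes and 0.11 over all genes. None of the 9 was dim, which means that no gene had both group means under the lower quartile of the named genes, 5.53 on the log2 scale. Over all genes, 5316 of 22180 were dim, so the values for all genes include dim genes while those for the set do not. The 3 purmorphamine values lay all below the 3 vehicle values in 5 of the 9 genes, which happened in 17.1% of all genes. They lay all above in 2, which also happened in 17.1% of all genes, so that 7 of the 9 genes were separated in either direction, against 34.2% of all genes.

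The start regions of the called genes are shown because they are the regulatory sequence nearest to the members that moved, in both directions. RefSeq windows (GRCm38.p6) were matched by symbol for 8 of the 10 genes, without Ptgis and Alox5ap. Printed are the 250 bases before the annotated start, 5′ to 3′ on the strand of the gene, for 2 genes that fell (Alox5, Hpgds) and 2 that rose (Ptges, Ptger2). Capitals mark matches to any of 6 motifs searched on both strands, which are named with their letters after the sequences. The windows lie at chr6:116461179-116461428 (minus strand), chr6:65144731-65144980 (minus strand), chr2:30903298-30903547 (minus strand) and chr14:44987861-44988110 (plus strand).
Alox5: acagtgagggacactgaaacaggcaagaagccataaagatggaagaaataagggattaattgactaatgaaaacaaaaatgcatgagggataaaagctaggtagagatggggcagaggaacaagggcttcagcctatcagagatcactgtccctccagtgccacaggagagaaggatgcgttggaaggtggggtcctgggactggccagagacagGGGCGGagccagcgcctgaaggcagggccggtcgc
Hpgds: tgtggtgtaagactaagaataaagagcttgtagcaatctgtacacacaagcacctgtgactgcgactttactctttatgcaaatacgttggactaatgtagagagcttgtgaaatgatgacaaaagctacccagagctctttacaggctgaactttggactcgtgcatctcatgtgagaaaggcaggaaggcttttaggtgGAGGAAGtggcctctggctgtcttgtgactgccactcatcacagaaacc
Ptges: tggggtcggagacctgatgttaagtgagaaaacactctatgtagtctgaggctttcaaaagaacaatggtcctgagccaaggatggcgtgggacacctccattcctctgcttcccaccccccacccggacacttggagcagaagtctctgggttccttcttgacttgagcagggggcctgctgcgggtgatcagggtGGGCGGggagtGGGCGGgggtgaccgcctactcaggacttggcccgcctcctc
Ptger2: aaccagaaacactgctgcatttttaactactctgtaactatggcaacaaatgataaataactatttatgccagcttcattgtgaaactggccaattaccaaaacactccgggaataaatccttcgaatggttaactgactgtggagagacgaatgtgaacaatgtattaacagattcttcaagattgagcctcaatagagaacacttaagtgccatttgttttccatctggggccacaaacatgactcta

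The GC box, searched as GGGCGG, was found once in Alox5, at bases -35 to -30 from the start, and at 2 places in Ptges, -53 to -48 and -42 to -37. Of 32851 RefSeq windows of 300 bases (250 before and 50 after the start), 35.7% hold a GC box. The PU.1-type ETS element, searched as GAGGAAG, was found in Hpgds at -49 to -43, and 13.6% of all windows hold it. Genes without a call, or not measured, hold these motifs too: the GC box was found at 1 place in Ptgs2 and at 4 in Ptger4, and the PU.1-type element at 1 place each in Ptgs1 and Ltc4s. The matches marked in the 4 printed windows do not overlap one another. Ptger2 holds none of the 6 motifs. The Gli element, searched as GACCACCCA and held by 0.25% of all windows, is in none of the 8 windows of this gene set. The same is true of the TATA box (TATAAA, 13.6% of all windows). It is also true of the cyclic AMP response element (TGACGTCA, 1.79%). The AP-1 element (TGAGTCA, 5.2%) is likewise in none of the 8. These matches describe the letters of the windows, and the arrays do not show whether a factor bound there.

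Cyclooxygenase-2 was the entry point of the prostaglandin branch that could be measured. Ptgs2 read 13.34, 13.25 and 13.31 log2 units in the 3 vehicle wells and 13.23, 13.17 and 13.22 in the 3 purmorphamine wells. All purmorphamine values lay under all vehicle values, but the gap between the groups was narrower than the spread within either. The difference of -0.10 (SE 0.05, 95% interval -0.22 to 0.03, n = 3 per group) did not pass the test (limma adjusted p = 0.296). With a variance trend and robust moderation it did, at an adjusted p of 0.0445, and it missed in the other 13 of 14 alternative settings. The interval excludes a change of 1.5-fold in either direction for the array value.

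Of the 3 terminal synthases, 1 rose, 1 fell and 1 did not pass the test. Ptges, which encodes the inducible microsomal prostaglandin E synthase, read 9.06, 8.995 and 9.10 with vehicle and 9.54, 9.54 and 9.43 with purmorphamine. The groups did not overlap, and the rise was 0.45 (SE 0.06, 95% interval 0.31 to 0.59, limma adjusted p = 0.00334, n = 3 per group). Hpgds, the hematopoietic prostaglandin D synthase, read 10.13, 10.09 and 10.05 with vehicle and 9.37, 9.44 and 9.30 with purmorphamine. Again the groups did not overlap, and Hpgds fell by 0.72 (SE 0.06, 95% interval -0.86 to -0.59, limma adjusted p = 0.000546). Ptgis, prostacyclin synthase, read 10.12, 10.16 and 10.12 with vehicle and 10.00, 10.11 and 10.15 with purmorphamine. These values overlapped, with a difference of -0.04 (95% interval -0.18 to 0.09, limma adjusted p = 0.680).

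**Figure D1:**
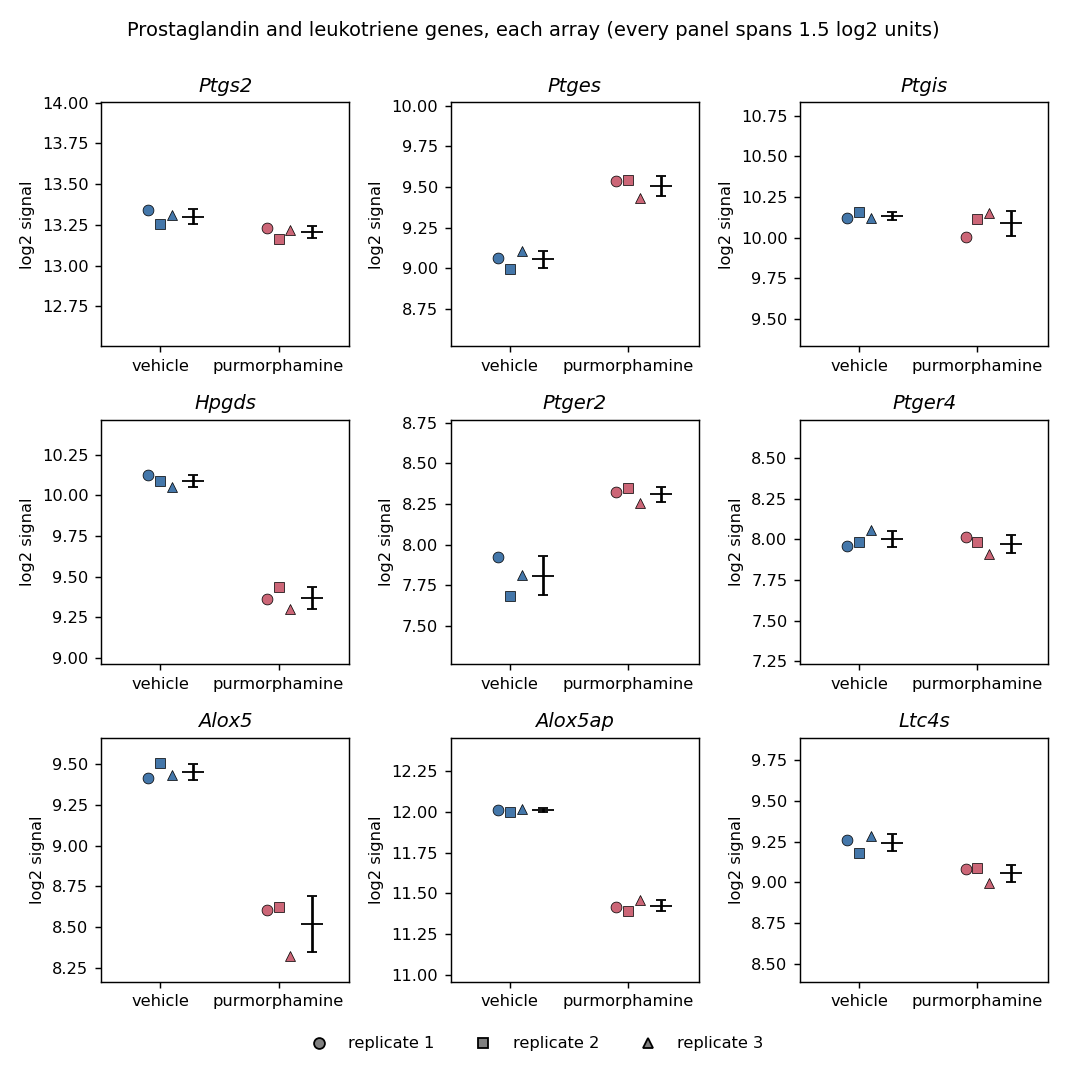
Log2 signal of the 9 measured genes in each of the 6 arrays, with vehicle in blue and purmorphamine in red; symbols mark replicates, bars are the mean and SD of 3 wells, and every panel spans 1.5 log2 units. Hpgds, Alox5 and Alox5ap lie lower in all 3 purmorphamine wells and Ptges and Ptger2 higher, while values of Ptgis and Ptger4 overlap.

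Of the prostaglandin E2 receptor genes in the set, Ptger2 passed the test and Ptger4 did not. Ptger2, which encodes EP2, read 7.93, 7.69 and 7.82 with vehicle and 8.32, 8.35 and 8.26 with purmorphamine. It rose by 0.50 (SE 0.07, 95% interval 0.33 to 0.67, limma adjusted p = 0.00502, n = 3 per group), and the groups did not overlap. Ptger4, which encodes EP4, read 7.96, 7.99 and 8.06 with vehicle and 8.02, 7.99 and 7.91 with purmorphamine. Its values overlapped, and the difference was -0.03 (95% interval -0.16 to 0.10, limma adjusted p = 0.798). Of the other prostaglandin E2 receptor genes, Ptger3 differed by 0.06 (limma adjusted p = 0.755), and Ptger1 was not analysed here.

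The leukotriene branch was lower at its first steps. Alox5 read 9.41, 9.51 and 9.43 with vehicle and 8.61, 8.62 and 8.32 with purmorphamine. It fell by 0.93 (SE 0.09, 95% interval -1.15 to -0.72, with 3 wells per group and a limma adjusted p of 0.00106), which ranks as fall number 95 among the 22180 genes. Purmorphamine replicate 3 was the lowest well, and without it the groups still did not overlap. A second, dimmer Alox5 probe set read 8.32, 8.14 and 8.19 with vehicle and 7.90, 7.92 and 7.53 with purmorphamine. Its purmorphamine wells had the same order, with replicate 3 lowest, and it fell by 0.44 (limma adjusted p = 0.0473 with every probe set as its own test). The mean of both probe sets fell by 0.69. Both probe sets thus gave a fall, and its size is less certain than its direction.

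Alox5ap, the gene of the 5-lipoxygenase activating protein, read 12.01, 11.9996 and 12.02 with vehicle and 11.42, 11.39 and 11.46 with purmorphamine. The spread within each group was small, with SDs of 0.01 and 0.03, beside a median SD of 0.08 over all genes and groups. The fall was 0.59 (SE 0.05, 95% interval -0.70 to -0.47, limma adjusted p = 0.000633, n = 3 per group). The second Alox5ap probe set fell by 0.60 (limma adjusted p = 0.00124 with every probe set as its own test), so both probe sets gave a like size. Ltc4s, which makes leukotriene C4, read 9.26, 9.18 and 9.28 with vehicle and 9.08, 9.09 and 8.997 with purmorphamine. Its groups did not overlap, and the difference of -0.19 (95% interval -0.32 to -0.05) missed the threshold (limma adjusted p = 0.0720). It passed with a linear offset of 50 (adjusted p = 0.0211), without the dimmest 33.3% of genes (0.0281) and with trend and robust moderation (0.0155). Ltc4s missed in the other 11 of 14 alternative settings, among them every one that left out 1 array (adjusted p from 0.0938 to 0.182).

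**Figure D2:**
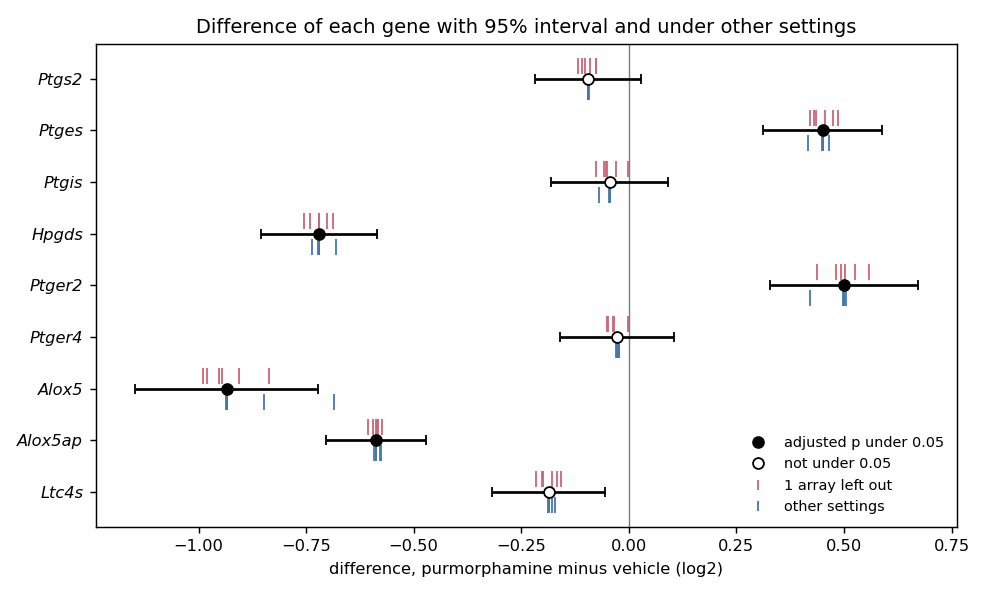
Difference of each gene in log2 units, purmorphamine minus vehicle, with the 95% interval of the limma fit; filled circles passed an adjusted p under 0.05, red ticks above each line leave out 1 array and blue ticks below use the other settings. The 3 falls and 2 rises stay on their side of 0 in every tick, and Alox5 has the widest range, from -0.99 to -0.69.

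Whether genes of 1 branch changed unequally was examined for 6 pairs, chosen with their values known, by the change in their within-array log2 difference. The change of Ptges exceeded that of Hpgds by 1.17 and that of Ptgs2 by 0.55. The change of Ptger2 exceeded that of Ptger4 by 0.53. On the leukotriene side, the brighter Alox5 probe set changed by 0.35 more than Alox5ap, and Alox5ap by 0.40 more than Ltc4s, both downward. The brighter Alox5 probe set changed by 0.50 more than the dimmer one, also downward. That dimmer probe set fell by 0.44, less than either Alox5ap probe set (0.59 and 0.60). The order of Alox5 and Alox5ap thus depends on the probe set. In each of the 6 pairs the 3 purmorphamine wells were separated from the 3 vehicle wells, and the exact permutation test (two-sided) gave 0.10 for each pair, also after Benjamini-Hochberg adjustment. That is the smallest p which 3 against 3 wells allow, so no pair could pass 0.05.

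Around this gene set, 51 further genes of the eicosanoid pathway were listed by role, and 45 of them were measured. Of these, 5 rose and 5 fell (22.2% called, against 14.3% of all genes), with a median difference of -0.05, beside -0.01 over all genes. Only 4 of the 45 were dim, a smaller share than the 5316 of 22180 over all genes. With 1 array left out, the list had 7, 6 and 8 calls without vehicle replicates 1, 2 and 3 (15.6%, 13.3% and 17.8%). All genes then had 2144, 2034 and 2110 calls (9.67%, 9.17% and 9.51%), against 3181 in the main test. Without purmorphamine replicates 1, 2 and 3 the list had 6, 6 and 5 calls (13.3%, 13.3% and 11.1%). All genes then had 1967, 2374 and 2065 calls (8.87%, 10.7% and 9.31%).

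Release of arachidonic acid was represented by 9 measured genes, of which 2 passed the test, both as rises. Mgll, the lipase that splits the endocannabinoid monoacylglycerol into arachidonic acid and glycerol, read 9.78, 9.85 and 9.86 with vehicle and 10.81, 10.86 and 10.74 with purmorphamine. It rose by 0.97 (SE 0.06, limma adjusted p = 0.000164), and its groups were far apart. The calcium-independent phospholipase gene Pla2g6 rose by 0.29. Pla2g4a, the cytosolic phospholipase A2 that supplies both branches, differed by 0.14 and did not pass the test (limma adjusted p = 0.118). It passed with a linear offset of 50 (0.0319) and with trend and robust moderation (0.0119), and missed in the other 12 of 14 alternative settings.

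Among 6 other genes of prostanoid synthesis, thromboxane synthase Tbxas1 was the 1 call. It read 10.39, 10.40 and 10.41 with vehicle and 9.67, 9.82 and 9.67 with purmorphamine, and fell by 0.68 (SE 0.06, limma adjusted p = 0.000733). Its change has the direction and nearly the size of that of Hpgds. The other 5 genes differed by -0.25 to 0.09, including the second prostaglandin E synthase gene Ptges2 (0.09). Prxl2b, a prostaglandin F synthase gene, differed by -0.25 (limma adjusted p = 0.0643), and passed in 4 of 14 alternative settings. Of 5 transport and breakdown genes, the reductase gene Ptgr2 rose by 0.28. Hpgd, the dehydrogenase that inactivates prostaglandins, fell by 0.33 but was dim, with means of 5.38 and 5.05.

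Of 5 other prostanoid receptor genes, the prostacyclin receptor gene Ptgir rose. It read 7.28, 7.36 and 7.16 with vehicle and 8.34, 8.31 and 8.11 with purmorphamine. The groups did not overlap, and the rise was 0.99 (SE 0.08, limma adjusted p = 0.00066, n = 3 per group). The remaining 4 receptor genes differed by -0.09 to 0.09 and did not pass.

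Cysltr1, the receptor for the cysteinyl leukotrienes, had the largest difference of the 45 listed genes. It read 8.44, 8.24 and 8.14 with vehicle and 6.81, 6.55 and 6.57 with purmorphamine, and fell by 1.63 (SE 0.10, 3.09-fold, limma adjusted p = 0.000226). The related receptor gene Cysltr2 fell by 0.29 at dim signals of 4.67 and 4.37. Of 8 genes of leukotriene synthesis and breakdown, Dpep1 rose and Mgst3 fell. Dpep1, a dipeptidase that trims leukotriene D4, read 8.22, 8.14 and 8.10 with vehicle and 8.91, 9.16 and 9.01 with purmorphamine, a rise of 0.87 (SE 0.08, limma adjusted p = 0.000727). Mgst3, a microsomal glutathione transferase, fell by 0.33. Lta4h, which makes leukotriene B4, differed by 0.04 (limma adjusted p = 0.781), and by -0.0044 without vehicle replicate 2. None of the 6 other lipoxygenase genes passed with limma, with 1 at an unadjusted p under 0.05. Their differences ran from -0.24 to -0.01, with Alox15 lowest (limma adjusted p = 0.0960). Alox15 passed without the dimmest 33.3% of genes (0.0429) and without vehicle replicate 1 (0.0365), and missed in the other 12 of 14 alternative settings. Ephx2, the soluble epoxide hydrolase, differed by 0.23 (limma adjusted p = 0.0744). It passed with a linear offset of 50 (0.0367), without the dimmest 33.3% of genes (0.0306) and without purmorphamine replicate 1 (0.0457). Ephx2 missed in the other 11 of 14 alternative settings.

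The smaller calls of this wider list were lost when single wells were left out. In that case, Pla2g6, Ptgr2, Hpgd, Mgst3 and Cysltr2 each missed the test in 5 of 6 cases, with adjusted p up to 0.0822, 0.0682, 0.128, 0.0916 and 0.0880. Pla2g6, Mgst3 and Cysltr2 passed without vehicle replicate 3, Ptgr2 without purmorphamine replicate 2 and Hpgd without vehicle replicate 1. Hpgd also missed it with quantile normalization (0.0520), a linear offset of 50 (0.0576) and trend and robust moderation (0.0521), and Cysltr2 with the offset (0.116) and with trend and robust moderation (0.0834). Mgll, Tbxas1, Ptgir, Dpep1 and Cysltr1 passed in all 6 cases with 1 array left out, as did Ptges, Hpgds, Ptger2, Alox5 and Alox5ap.

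**Figure D3:**
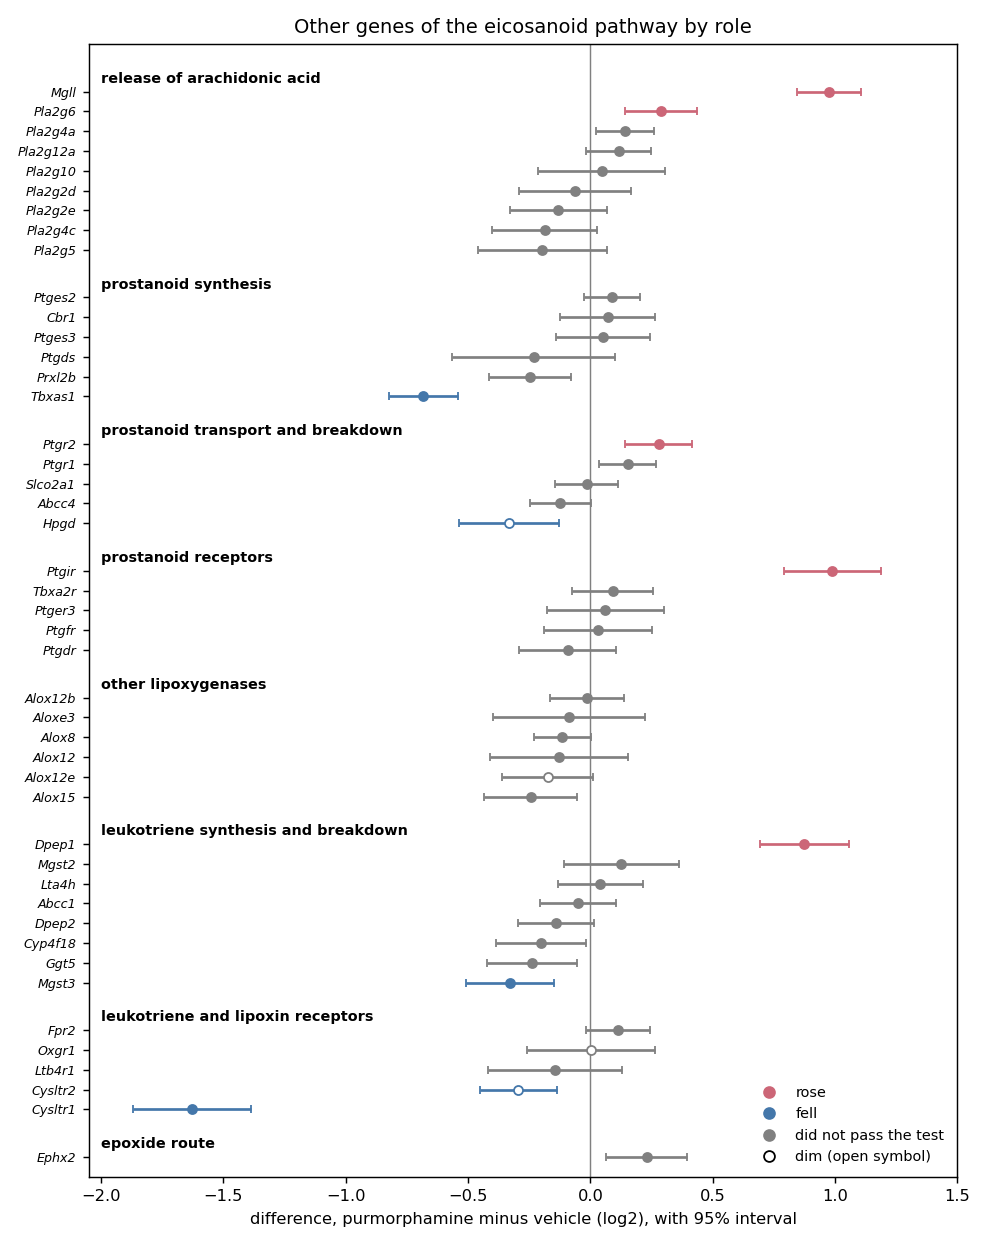
Differences in log2 units, purmorphamine minus vehicle, with 95% intervals for 45 further genes of the pathway, grouped by role; red rose, blue fell, grey did not pass, and open symbols are dim. Mgll, Ptgir and Dpep1 lie near 0.9 to 1.0, and Cysltr1 lies alone at -1.63.

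The cultures also carried transcripts known from cells other than fibroblasts, some of them at high signal. With vehicle, the macrophage markers Lyz2 (13.96), Cd68 (13.21), Fcer1g (13.08) and Marco (12.91) read above Col1a1 (12.77), the brightest fibroblast marker listed. The rest of the macrophage list read lower than Col1a1. Array signals of different genes do not give shares of cells. In bulk RNA, fewer cells of a type and less RNA per cell cannot be told apart. All 10 macrophage and monocyte markers were above the dim level. Of these, the 4 that passed the test all fell (Itgam -1.46, Csf1r -0.63, Mrc1 -0.62 and Adgre1 -0.37). The other 6, Fcer1g (-0.17), Lyz2 (0.05), Ptprc (0.07), Cd68 (0.13), Cd14 (0.19) and Marco (0.20), did not pass. At an unadjusted limma p under 0.05, Marco, Cd14 and Cd68 were higher and Fcer1g was lower. In Lyz2, Cd68, Cd14 and Marco all 3 purmorphamine values lay above the 3 vehicle values, which happened in 17.1% of all genes. The list thus moved in both directions. The summed linear signal of the list ran from 60849 to 61279 with vehicle and from 55794 to 57717 with purmorphamine. Alox5ap, Hpgds and Tbxas1 fell alongside part of this list, by amounts near those of Csf1r and Mrc1. The brighter Alox5 probe set fell by an amount between those of Csf1r and Itgam, and the dimmer one by less than Csf1r. The list's part in their change was not tested.

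Mast cells and basophils are another known source of prostaglandin D2 and leukotriene C4. Of 8 markers, 6 were dim (Cpa3, Ms4a2, Fcer1a, Tpsb2, Mcpt4 and Hdc), Mcpt8 fell by 0.49 and Kit rose by 0.35. The summed linear signal was 871 to 987 with vehicle and 754 to 773 with purmorphamine. Mcpt8, the brightest of the 8 at 9.41 with vehicle, outweighs the others in this sum. Of 6 neutrophil markers Mmp8 alone passed the test and fell by 0.43, with sums of 3110 to 3239 and 2323 to 2495. These sums follow Mmp8, which read 11.49 with vehicle, while the next brightest, S100a8, read 6.90. The other 5 did not pass: S100a8 (-0.38), Ly6g (-0.27), Ngp (-0.04), Camp (0.02) and S100a9 (0.03). S100a8 was near the threshold (limma adjusted p = 0.0611). Its purmorphamine values lay all below its vehicle values, which happened in 17.1% of all genes. Ly6g and Camp were dim. Of 4 measured platelet markers the chemokine genes Ppbp and Pf4 fell by 0.97 and 0.66, with sums of 6448 to 6690 and 3794 to 4026, while Itga2b (-0.28) and Gp9 (0.02) did not pass. Of the markers without a call, Cpa3, S100a8 and Itga2b were lower and Tpsb2 was higher at an unadjusted limma p under 0.05. The part of these lists in the falls was not tested.

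Of 6 fibroblast markers, Pdgfra (0.83), Lum (0.49), Col1a2 (0.48), Dcn (0.46) and Col1a1 (0.31) rose and Thy1 fell by 0.32. The summed linear signal ran from 14176 to 14577 with vehicle and from 18534 to 20001 with purmorphamine, and its part in the rises of Ptges and Ptger2 was not tested. Among 4 endothelial markers, Cdh5 and Pecam1 rose by 0.34 and 0.30, while Tek (0.25) and Kdr (0.06) did not pass. Among 4 epithelial markers Epcam rose by 0.50 while Sftpc (-0.25), Cdh1 (-0.04) and Krt8 (-0.01) did not pass. None of the 3 measured lymphocyte markers passed with limma, with 1 at an unadjusted p under 0.05, and their differences ran from -0.17 to 0.07. The Hedgehog targets Gli1 (-0.12), Ptch1 (0.17) and Hhip (0.06), read as a check of the agonist, did not pass the test (limma adjusted p = 0.362, 0.188 and 0.647). Hhip was dim, with means of 5.28 and 5.34. Gli1, with means of 6.12 and 6.00, lay under the median of the named genes, 6.94. Ptch1, with means of 8.18 and 8.35, lay above that median, and its groups overlapped. Low signal therefore limits the check for Hhip and Gli1 but not for Ptch1, and none of the targets read was called.

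**Figure D4:**
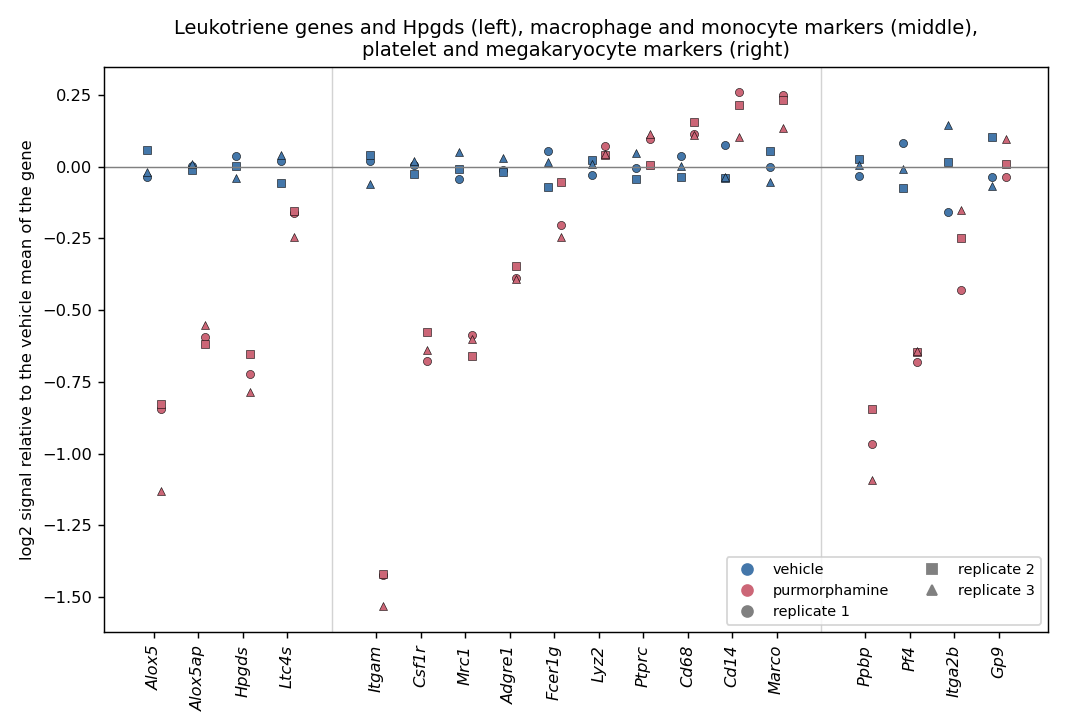
Log2 signal of each array relative to the vehicle mean of the gene, for Alox5, Alox5ap, Hpgds and Ltc4s beside macrophage and monocyte markers and platelet markers; blue is vehicle, red is purmorphamine, and symbols mark replicates. Purmorphamine wells of Csf1r and Mrc1 lie at depths like those of Alox5ap and Hpgds, those of Fcer1g lie nearer to the vehicle mean, and those of Lyz2, Ptprc, Cd68, Cd14 and Marco do not lie below the vehicle mean.

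Genes whose profile over the 6 arrays lay nearest to the 3 largest changes were found by the root mean square distance of values taken relative to the vehicle mean. For Alox5 these were Ptchd4, Ppbp and Uhrf1, at 0.05 to 0.06 log2 units. For Hpgds they were the protease gene Ctsc, the interleukin 6 receptor gene Il6ra and the aminopeptidase gene Rnpep, at about 0.03. For Alox5ap they were the exonuclease gene Exo1, Iqgap3 and the iron exporter gene Slc40a1, also at about 0.03. With 3 wells per group, this distance reflects mainly a like difference between groups.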

How the data were processed

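RNA of 6 wells was measured, 3 per group, 1 array each, from 100 ng of total RNA per the labels' protocols. The authors deposited 1 log2 value per probe set and array. The submitters' processing notes list oligo, RMA and limma without versions. RMA equalises probe intensities across arrays before they are summarised into probe sets, and compresses changes of dim genes. Array medians lay between 6.34 and 6.39, and arrays have no read depth, so their number limits the precision.

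Of 41345 probe sets, 23521 had 1 symbol in the platform annotation, 1814 several and 16010 none; only the first kind was named. Per gene, the probe set with the highest mean was kept (22180 genes). All genes were fitted together with lmFit and eBayes (limma 3.58.1, R 4.3.3), two-sided, with Benjamini-Hochberg adjustment and no block. The step was tested on simulated data. The gene set, lists, motifs and tests were chosen with earlier results of these data known. The text names all 10 genes of the set, all called genes of the wider list, the 3 nearest profiles of the 3 largest changes, and further genes where a role had no call. The lists' other named members, among them Pla2g4a, Ptges2, Prxl2b and Lta4h, were chosen after their values were seen. Alternatives were median centring, quantile normalization, a filter on the dimmest 33.3% of genes, an offset of 50 on the linear scale, the mean of probe sets, every probe set tested, trend and robust moderation, a replicate block and each array left out.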

Additional observations from a re-analysis of the deposited data

How the results depend on the processing

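The 5 calls of the gene set kept their direction and passed the test in all 14 alternative settings. Under trend and robust moderation 5 genes of the set were called lower, against 3 in the main test, while calls over all genes went from 3181 to 4697 (2281 lower and 2416 higher). With 1 array left out, the set had 2 genes called higher and 3 lower in every case, the wider list had 5 to 8 calls (3 to 4 higher, 2 to 4 lower), and all genes had 1967 to 2374 calls (897 to 1168 higher, 1057 to 1206 lower), with fewer samples. Ptger4, which was not called, ran from -0.051 to 0.0011 with 1 array left out, and Lta4h from -0.0044 to 0.10. A linear offset of 50 gave 8 rises in the wider list, against 5, and 2291 over all genes, against 1593, and the cause was not tested. With the replicate number as a block, the wider list had 6 calls, 3 higher and 3 lower. That is 13.3% of the list against 11.0% of all genes, where the main test had 22.2% against 14.3%. Calls lost under the block were those of Pla2g6 (adjusted p = 0.0649), Ptgr2 (0.0502), Hpgd (0.0685) and Mgst3 (0.0535), and the 5 calls of the gene set held. Same-numbered wells correlated at 0.106, 0.0235 and 0.103 in their deviations from the group means, across genes. Every well correlated best with its own number, as a hint from the data only, and the labels state no pairing. No scaling moved the median of all genes by over 0.1. The number of arrays limits what small differences can be told.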
